A study of Mus musculus with 18 samples.

Results

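The tubulins and stathmins described here are 9 genes: the alpha-tubulins Tuba1a, Tuba1b and Tuba4a, the beta-tubulins Tubb2b, Tubb3, Tubb5 and Tubb6, and the stathmins Stmn1 and Stmn2. They were taken by gene symbol from the platform annotation, which gives them 15 of the 24538 probes in the authors' value table and 9 of its 13032 named genes. The study used C2C12 cells, a line of mouse myoblasts that stop dividing and turn toward muscle when serum is lowered. The cells received RNAi against STAC3 or a control RNAi of high GC content, and their RNA was read on Illumina bead arrays. Stac3 encodes an adaptor of the muscle calcium channel complex that couples excitation to contraction. At day 0 the cells had spent 24 h after RNAi in medium with 20% serum. At day 1 they had reached 48 h after RNAi, of which 24 h were in differentiation medium with 2% serum. There were 3 samples of control RNAi at day 0 (replicates 2, 3 and 4) and 4 samples each of STAC3 RNAi at day 0, control RNAi at day 1 and STAC3 RNAi at day 1. All 15 samples are RNAi-treated cells of 1 line, so there is no untreated group. The labels do not say whether replicates came from separate transfections, and the p-values reflect the spread of these samples alone. Medium and time after RNAi change together between the days and cannot be told apart.

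Microtubules are hollow polymers of alpha- and beta-tubulin dimers. Several genes encode each subunit, and cells use different sets of them in division, in nerve processes and in muscle. Stathmins bind free dimers and favour disassembly of the polymer. During myoblast differentiation the microtubules that radiated from the centrosome are rebuilt along the long axis of the cell and around the nuclei. Tubulin messages are also degraded when free dimers accumulate, a feedback known as tubulin autoregulation.

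Values are the authors' normalized log2 intensities, and differences between groups are in log2 units, each with its standard error (SE). A difference passed where limma gave an adjusted p under 0.05 over the 18408 probes detected at p under 0.01 on at least 3 arrays. Between 15146 and 16802 probes were detected per array. Probes pass that detection limit at a value of about 6.87, called the detection level here. Where a gene had several probes, the one with the highest mean stood for it and the others are given beside it. The arrays fall into a set of 12, with 3 samples from each group and median intensities of 65.5 to 85.5, and a dimmer set of 6, with medians of 50.4 to 57.3. The dimmer set has 1 array from each day 0 group and 2 from each day 1 group, and 3 of the 6 are repeats. A day 0 group with 1 array there is taken to vary like the other groups. Control day 1 replicate 1, STAC3 RNAi day 0 replicate 4 and STAC3 RNAi day 1 replicate 3 were read in the dimmer set alone. Whether the sets are chips or scans is not labelled. The detection level is a mean over the 6 arrays of the dimmer set, and it was applied to all 15 samples. Stac3 itself read 7.04, 6.98 and 7.15 in control day 0 and 7.53, 7.69, 7.52 and 7.97 in control day 1. All 8 RNAi samples lay below the detection level, so Stac3 was at least 1.14-fold lower at day 0 (adjusted p 0.0214) and at least 1.75-fold lower at day 1 (adjusted p 6.03e-07). Myog, the regulator that starts terminal muscle differentiation, rose by 2.29 from day 0 to day 1 in control cells (SE 0.26, adjusted p 4.99e-06). Its control day 0 samples read 6.92, 6.81 and 7.46, 1 of them below the detection level, so the size of that rise is uncertain. Myog was lower with STAC3 RNAi at day 1, with a difference of -1.47 (SE 0.24, adjusted p 0.000229).

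Of the 9 genes, 8 were tested, with 13 of the 15 probes. Tubb3 and 1 of the 2 Tubb5 probes were detected on too few arrays. At day 0, Stmn2 and Tuba1a were higher with STAC3 RNAi and 6 genes did not pass. In that comparison 12.5% of all probes passed, 6.7% upward and 5.79% downward. The median difference of the 8 genes was 0.24, against 0.00574 over all probes. At day 1, Stmn2, Stmn1 and Tubb5 were higher with STAC3 RNAi, Tubb6 was lower, and the other 4 did not pass. The passing share of all probes was 33.1%, with 16.8% upward and 16.2% downward, and the median of the 8 genes was -0.00396, against 0.00916 over all probes.

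Between the days, Stmn1, Stmn2 and Tubb5 fell in control cells and Tubb2b rose. These are 4 of 8 genes in a comparison where 35.8% of all probes passed, 17.7% upward and 18.1% downward, with a median of -0.19 against -0.00278 over all probes. In STAC3 RNAi cells, Stmn1, Tuba1a, Tuba4a, Tubb5 and Tubb6 fell and Tubb2b rose. Here 6 of 8 genes and 41.4% of all probes passed, 20.7% upward and 20.8% downward, and the medians were -0.31 and 0.00163. The comparisons share groups of samples and are not independent of each other.

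**Figure D1:**
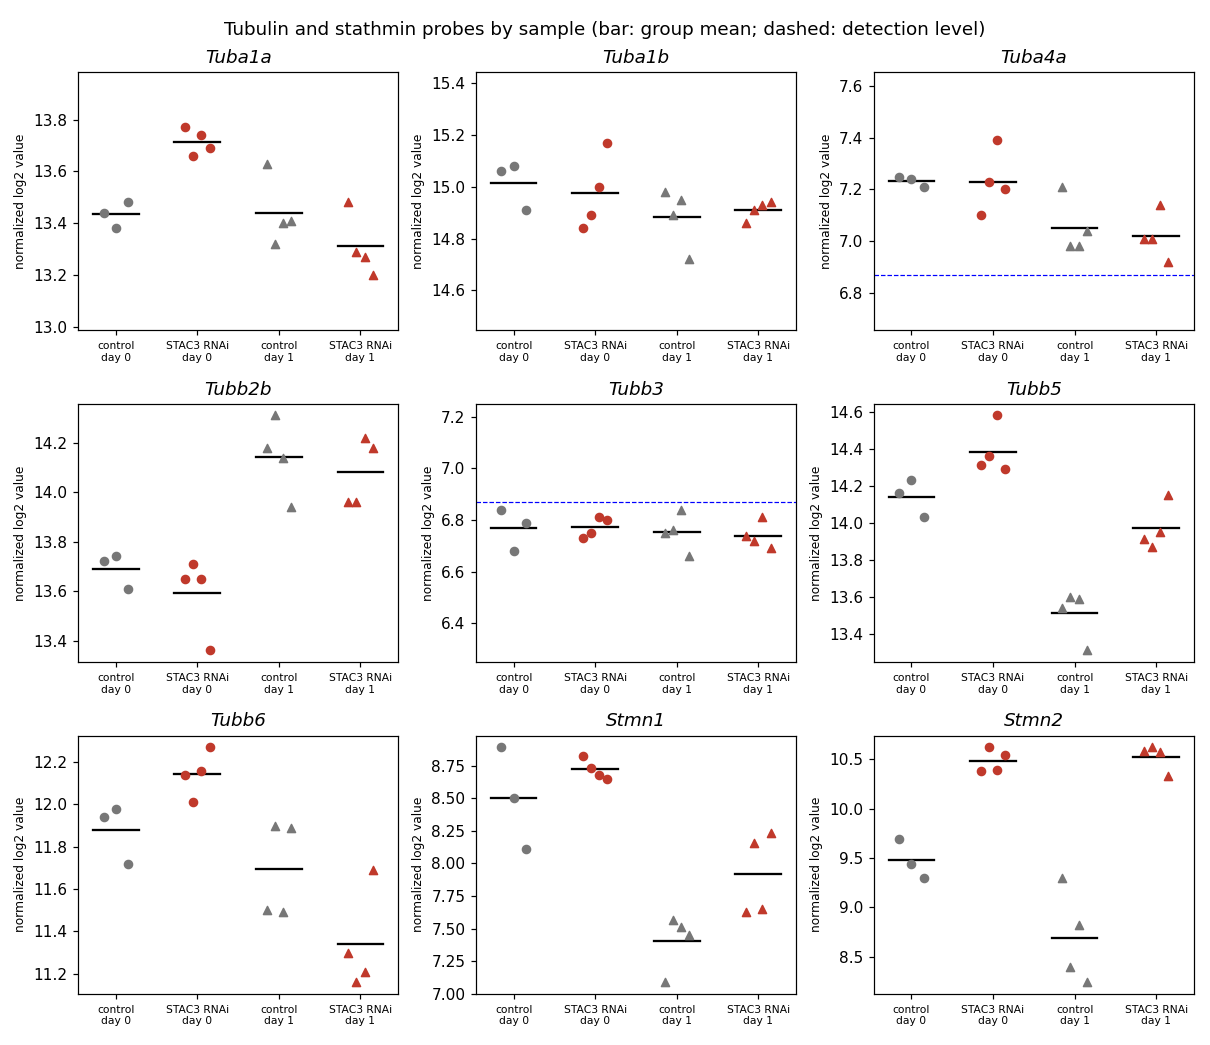
Value of each gene's representative probe in each of the 15 samples, on the authors' log2 scale, by group; points are samples, bars are group means, and each panel has its own axis. Stmn2 in the STAC3 RNAi samples lies above its controls on both days, where 27.1% (day 0) and 28.2% (day 1) of all tested probes showed no overlap. Tubb3 lies under the detection level of 6.87 in every sample.

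**Figure D2:**
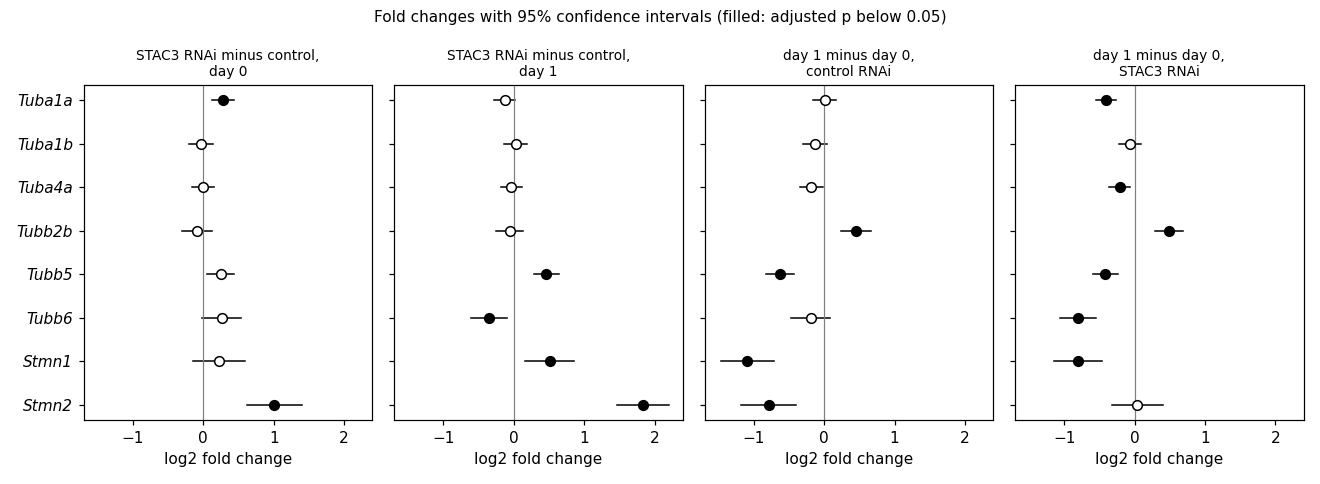
Log2 fold change of each tested gene with its 95% confidence interval for STAC3 RNAi minus control on each day and for day 1 minus day 0 in each RNAi; filled points have an adjusted p below 0.05. Stmn2 has the widest distance from 0 in the RNAi comparisons, at 1.01 on day 0 and 1.84 on day 1.

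Stmn2, also called SCG10, is a membrane-anchored stathmin best known from growing axons. It read 9.69, 9.44 and 9.30 in control day 0 and 10.38, 10.62, 10.39 and 10.54 in STAC3 RNAi day 0. Every RNAi sample was above every control, in a comparison where 27.1% of all tested probes showed no overlap. The difference was 1.01 (SE 0.19, 95% confidence interval 0.61 to 1.40, adjusted p 0.00203), or 2.01-fold. At day 1 the controls read 9.30, 8.39, 8.82 and 8.24, and the RNAi samples 10.58, 10.62, 10.57 and 10.33. The groups again did not overlap, as for 28.2% of all tested probes, and the difference was 1.84 (SE 0.17, interval 1.47 to 2.20, adjusted p 1.13e-06), or 3.57-fold. Control replicate 1 was the highest of the day 1 controls and read the same as the lowest of the day 0 controls.

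In control cells Stmn2 fell by 0.79 between the days (SE 0.19, adjusted p 0.00308). With STAC3 RNAi the 8 samples overlapped between the days, and the difference was 0.04 (SE 0.17, interval -0.32 to 0.40, adjusted p 0.88). The effect of RNAi at day 1 exceeded that at day 0 by 0.83, which did not pass (SE 0.25, interval 0.30 to 1.37, adjusted p 0.0723). Without control day 1 replicate 1, which was read in the dimmer set alone, it was 1.04 and passed (adjusted p 0.00512). A block for the array set gave 0.86, which also passed (adjusted p 0.0343). Leaving out each sample in turn gave 0.682 to 1.04 (adjusted p 0.00512 to 0.184). Within the set of 12 arrays the effects of RNAi were 1.00 at day 0 (adjusted p 0.000322) and 2.00 at day 1 (adjusted p 3.66e-07). Within the set of 6 they were 1.21 (adjusted p 0.112) and 1.55 (adjusted p 0.00653). The fall of control cells was -1.01 within the 12 arrays (adjusted p 4.79e-05) and -0.23 within the 6 (adjusted p 0.512).

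Stmn1, the stathmin of dividing cells also known as oncoprotein 18, is switched off by phosphorylation as cells enter mitosis. It read 8.89, 8.50 and 8.11 in control day 0 and 7.09, 7.57, 7.51 and 7.45 in control day 1. The days did not overlap, as for 41.1% of all tested probes, and the fall was -1.09 (SE 0.18, adjusted p 0.00014), or 2.13-fold. The STAC3 RNAi samples read 8.82, 8.73, 8.68 and 8.65 at day 0 and 7.63, 8.16, 7.65 and 8.23 at day 1. They too fell without overlap, by 0.80 (SE 0.16, adjusted p 0.000846), where 37.6% of all tested probes showed no overlap.

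At day 0 the RNAi samples lay within the range of the controls, and the difference of 0.22 did not pass (SE 0.18, interval -0.15 to 0.60, adjusted p 0.48). At day 1, where 28.2% of all tested probes showed no overlap, all 4 RNAi samples were above all 4 controls, by 0.51 (SE 0.16, interval 0.17 to 0.86, adjusted p 0.0239). That difference no longer passed without control replicate 1 (0.41, adjusted p 0.0768), without RNAi replicate 2 (0.43, adjusted p 0.0787) or without RNAi replicate 4 (0.41, adjusted p 0.0718). The gene also moved with the array: in all 3 samples with a repeat the second array read lower, by 0.53, 0.39 and 0.36. It was not alone in this. On the same repeats Tubb6 read lower by 0.2, 0.17 and 0.33, and the dimmer of 2 Tuba1a probes by 0.58, 0.58 and 0.3. Stmn2 read higher by 0.06, 0.16 and 0.32, and the brighter Tuba1a probe by 0.31, 0.04 and 0.09. Within the set of 12 arrays the day 1 difference was 0.49 (adjusted p 0.0113), and within the 6 it was 0.35 (adjusted p 0.126). The RNAi effects of the 2 days were not shown to differ (0.29, SE 0.24, adjusted p 0.571).

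Tubb5, the beta-tubulin of most dividing cell types, fell between the days in both treatments, as Stmn1 did. It read 14.16, 14.23 and 14.03 in control day 0 and 13.54, 13.60, 13.59 and 13.31 in control day 1, a fall of -0.63 (SE 0.09, adjusted p 5.25e-05). With STAC3 RNAi it read 14.31, 14.36, 14.58 and 14.29 at day 0 and 13.91, 13.87, 13.95 and 14.15 at day 1, a fall of -0.42 (SE 0.08, adjusted p 0.000877). In both treatments every day 1 sample was below every day 0 sample. Of all tested probes, 41.1% showed no overlap between the days in control cells and 37.6% in RNAi cells.

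RNAi samples of Tubb5 were also above their controls without overlap on both days. The difference was 0.25 at day 0 and did not pass (SE 0.09, adjusted p 0.0951). At day 1 it was 0.46 and passed (SE 0.08, adjusted p 0.000585). The difference between these effects, 0.21, did not pass (adjusted p 0.385). Without overlap stood 27.1% of all tested probes at day 0 and 28.2% at day 1. Within the set of 12 arrays the day 1 difference was 0.51 (adjusted p 0.00177) and within the 6 it was 0.31 (adjusted p 0.0921).

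Tubb2b, a beta-tubulin best known from migrating neurons of the developing cortex and a chromosome neighbour of Tubb2a, went the other way. It read 13.72, 13.74 and 13.61 in control day 0 and 14.18, 14.31, 14.14 and 13.94 in control day 1, a rise of 0.45 (SE 0.10, adjusted p 0.00197). With STAC3 RNAi it read 13.65, 13.71, 13.65 and 13.36 at day 0 and 13.96, 13.96, 14.22 and 14.18 at day 1, a rise of 0.49 (SE 0.09, adjusted p 0.000472). The days did not overlap in either treatment, as for 41.1% of all tested probes in control cells and 37.6% in RNAi cells.

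RNAi and control samples of Tubb2b overlapped on both days, with differences of -0.09 at day 0 (SE 0.10, adjusted p 0.616) and -0.06 at day 1 (SE 0.09, adjusted p 0.677). The gene has 5 probes, correlated over the 15 samples at r of 0.5 to 0.95. All 5 were higher at day 1 in both treatments, with rises of 0.37 to 0.45 in control cells, of which 3 passed, and of 0.21 to 0.49 in RNAi cells, of which 3 passed. All 5 also gave negative differences between RNAi and control on both days. At day 1 the probe with a mean value of 12.14 read 12.52, 12.53, 12.44 and 12.38 in control and 11.95, 12.12, 12.17 and 12.19 with RNAi. Those groups did not overlap, as for 28.2% of all tested probes, and the difference was -0.36 (SE 0.07, adjusted p 0.00121). The other 3 probes gave -0.31, -0.25 and -0.32, none of which passed. With the mean of the 5 probes in place of the representative one, the day 1 difference was -0.26 and passed (adjusted p 0.0192). The probes of Tubb2b therefore gave differences from -0.06 to -0.36 at day 1, and whether they also read its neighbour Tubb2a, whose sequence is close, was not tested.

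Tubb6, a beta-tubulin found in many tissues and known for its high level in regenerating and dystrophic mouse muscle, was, by representative probes, the only tested member whose RNAi difference at day 1 passed in the negative direction. It read 11.50, 11.90, 11.49 and 11.89 in control day 1 and 11.30, 11.16, 11.21 and 11.69 with STAC3 RNAi. RNAi replicate 4 lay within the controls and the other 3 RNAi samples lay below them. The difference was -0.35 (SE 0.12, adjusted p 0.0348). It lost its call without any 1 of control replicates 2 and 4 and RNAi replicates 1, 2 and 3 (-0.34 to -0.28, adjusted p 0.0701 to 0.11), and when the day 1 groups were fitted alone (adjusted p 0.0937).

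At day 0, Tubb6 read 11.94, 11.98 and 11.72 in control and 12.14, 12.01, 12.16 and 12.27 with STAC3 RNAi. All RNAi samples were above the controls, in a comparison where 27.1% of all tested probes showed no overlap. The difference of 0.26 did not pass (SE 0.13, adjusted p 0.224). Between the days the RNAi samples fell without overlap, as for 37.6% of all tested probes, by 0.80 (SE 0.12, adjusted p 5.73e-05). Control samples overlapped between the days (-0.19, SE 0.13, adjusted p 0.294). The RNAi effect at day 1 minus that at day 0 was -0.61 (SE 0.18, adjusted p 0.0613), which did not pass here. With a block for the array set it was -0.63 and passed (adjusted p 0.038), as it did without control day 1 replicate 1, control day 1 replicate 3 or RNAi day 1 replicate 4 (-0.73 to -0.68, adjusted p 0.0123 to 0.045). Over all 15 fits without 1 sample it ran from -0.728 to -0.535 (adjusted p 0.0123 to 0.141).

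Tubb3, the class III beta-tubulin used as a marker of neurons, had 1 probe, detected on 1 of the 18 arrays. Its values were 6.68 to 6.84 in control day 0, 6.73 to 6.81 in STAC3 RNAi day 0, 6.66 to 6.84 in control day 1 and 6.69 to 6.81 in STAC3 RNAi day 1. All 15 samples were thus below the detection level, and no difference of Tubb3 can be read from these arrays.

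Tuba1a, the main alpha-tubulin of developing neurons, read 13.44, 13.38 and 13.48 in control day 0 and 13.77, 13.66, 13.74 and 13.69 in STAC3 RNAi day 0. The RNAi samples were above the controls without overlap, as for 27.1% of all tested probes, by 0.28 (SE 0.07, adjusted p 0.0208), or 1.22-fold. At day 1 the controls read 13.63, 13.32, 13.40 and 13.41 and the RNAi samples 13.48, 13.29, 13.27 and 13.20. These groups overlapped, with a difference of -0.13 (SE 0.07, adjusted p 0.173).

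Between the days, control samples of Tuba1a overlapped (0.00547, SE 0.07, interval -0.15 to 0.16, adjusted p 0.968) and RNAi samples fell without overlap, by 0.41 (SE 0.07, adjusted p 0.000185). Of all tested probes, 37.6% showed no overlap between the days in RNAi cells. The RNAi effect at day 1 minus that at day 0 was -0.41 (SE 0.10, adjusted p 0.0307). It was the 1 tested member of 8 for which this difference passed, and 4.7% of all probes did, 2.23% upward and 2.47% downward. Leaving out each sample in turn gave -0.466 to -0.35 for Tuba1a (adjusted p 0.0143 to 0.0881). The call was lost in 5 of these 15 fits. The median over the 8 genes was 0.05, against -0.000521 over all probes.

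The second Tuba1a probe, with a mean value of 11.32, read 11.67, 11.68 and 11.21 in control day 0, 11.54, 11.11, 11.27 and 11.48 in STAC3 RNAi day 0, 11.07, 11.47, 11.23 and 11.40 in control day 1, and 11.17, 11.34, 10.86 and 11.24 in STAC3 RNAi day 1. All 4 groups overlapped, and none of its differences passed (-0.17 for RNAi at day 0, adjusted p 0.517). The correlation between the 2 probes over the 15 samples was 0.0947. With the mean of both probes the day 0 difference was 0.0579 (adjusted p 0.677) and the difference between the days' effects was -0.19 (adjusted p 0.301). In the set of 12 arrays the day 0 difference of the first probe was 0.34 (adjusted p 0.00456), and in the set of 6 it was 0.0565 (adjusted p 0.967). Without control day 0 replicate 2, control day 0 replicate 3 or RNAi day 0 replicate 1 it did not pass (0.26 to 0.29, adjusted p 0.0567 to 0.0856).

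**Figure D3:**
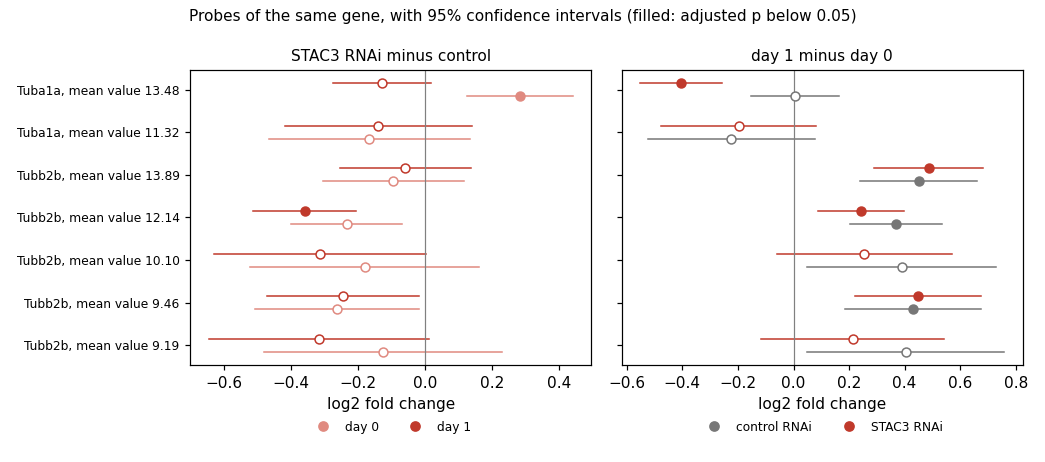
Log2 fold change with its 95% confidence interval for each tested probe of Tuba1a and Tubb2b, in STAC3 RNAi minus control (left) and day 1 minus day 0 (right); filled points have an adjusted p below 0.05. The Tuba1a probe with a mean value of 13.48 gave 0.28 at day 0 and the one with a mean of 11.32 gave -0.17.

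Tuba1b, the alpha-tubulin of most cell types, lies beside Tuba1a on chromosome 15 in the RefSeq annotation. It ran from 14.91 to 15.08 in control day 0, from 14.84 to 15.17 in STAC3 RNAi day 0, from 14.72 to 14.98 in control day 1 and from 14.86 to 14.94 in STAC3 RNAi day 1. The groups overlapped in all 4 comparisons. Probe sequences were not used here, so whether the probes of Tuba1a and Tuba1b read each other or the neighbouring Tuba1c was not tested. The differences between RNAi and control were -0.04 at day 0 (SE 0.08, interval -0.21 to 0.13, adjusted p 0.82) and 0.03 at day 1 (SE 0.07, interval -0.13 to 0.19, adjusted p 0.833). From day 0 to day 1 they were -0.13 in control (adjusted p 0.233) and -0.07 with RNAi (adjusted p 0.52). With quantile normalization added, the fall between the days passed in control (adjusted p 0.0347) and with RNAi (adjusted p 0.0219). The probe ranked 5 of 24538 by brightness.

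Tuba4a, an alpha-tubulin whose gene encodes no terminal tyrosine, lay just above the detection level. Its values ran from 7.21 to 7.25 in control day 0, 7.10 to 7.39 in STAC3 RNAi day 0, 6.98 to 7.21 in control day 1 and 6.92 to 7.14 in STAC3 RNAi day 1. All groups overlapped. RNAi and control differed by -0.0036 at day 0 (SE 0.07, adjusted p 0.984) and -0.03 at day 1 (SE 0.07, adjusted p 0.757). The fall between the days passed with RNAi (-0.21, SE 0.07, adjusted p 0.0218) but not in control (-0.18, SE 0.07, adjusted p 0.0725). The call with RNAi was lost without RNAi day 0 replicate 3 (-0.16, adjusted p 0.0813) or without RNAi day 1 replicate 4 (-0.18, adjusted p 0.0642). A block for the array set made the fall in control cells pass (-0.20, adjusted p 0.0429). Neither value shows that the treatments differed, since the test of that difference gave -0.03 (adjusted p 0.917).

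The sequences before the starts of Tuba1a, Tuba1b and Tubb5 are shown because Tuba1a and Tuba1b are neighbours and Tubb5 passed both between the days and for RNAi at day 1. RefSeq promoters on GRCm38.p6 were matched for 5 of the 9 genes, and each sequence below is the 250 bases before the annotated start, 5′ to 3′ on the gene's strand. Capitals mark the CCAAT box (CCAAT), the GC box (GGGCGG, here on the reverse strand as CCGCCC) and the E-box of the kind that myogenic factors bind (CAGCTG). The TATA box (TATAAA) and the cell cycle homology region (TTTGAA) were searched as well. All searches covered both strands, and no match overlaps another in these windows. Tuba1a lies at chr15:98953502-98953751 on the minus strand, Tuba1b at chr15:98934391-98934640 on the minus strand and Tubb5 at chr17:35838302-35838551 on the minus strand.
Tuba1a: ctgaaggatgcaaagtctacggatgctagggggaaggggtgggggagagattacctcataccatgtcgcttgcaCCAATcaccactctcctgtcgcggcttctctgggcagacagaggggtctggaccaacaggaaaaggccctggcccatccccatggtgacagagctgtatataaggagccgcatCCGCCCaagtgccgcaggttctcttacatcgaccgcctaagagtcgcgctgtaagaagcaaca
Tuba1b: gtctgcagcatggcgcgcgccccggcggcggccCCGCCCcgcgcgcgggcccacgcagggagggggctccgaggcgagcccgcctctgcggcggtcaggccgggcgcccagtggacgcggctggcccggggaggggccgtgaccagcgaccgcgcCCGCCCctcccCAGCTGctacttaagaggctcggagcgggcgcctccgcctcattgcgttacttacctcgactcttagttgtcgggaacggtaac
Tubb5: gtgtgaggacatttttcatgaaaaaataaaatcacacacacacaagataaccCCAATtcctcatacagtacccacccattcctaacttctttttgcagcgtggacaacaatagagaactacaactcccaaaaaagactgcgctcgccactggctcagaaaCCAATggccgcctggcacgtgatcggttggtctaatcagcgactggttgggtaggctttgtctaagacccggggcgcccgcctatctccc

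Tuba1a holds 1 CCAAT whose first base is 176 bases before the start and 1 GC box 63 bases before it, and 56.8% of its bases are G or C. The window of Tuba1b is 75.6% G and C, with GC boxes at 217 and 95 bases and a CAGCTG at 84 bases before the start. For Tubb5 the share is 49.2%, with CCAAT at 198 and 90 bases and no GC box. The TATA box and the cell cycle homology region, in these letters, are in none of the 3 windows. Among 32851 RefSeq promoters of the same length, 33.8% hold the CCAAT box, 32.7% the GC box, 13% the E-box, 12.4% the TATA box and 16% the cell cycle homology region, on either strand. A match describes letters only, and no binding was measured in this study.

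Among the 8 tested genes, correlations over the 15 samples describe who moved with whom. The samples share their groups and arrays, so these values are no test. Stmn1 and Tubb5 had r = 0.884, and Stmn2 and Tubb5 had r = 0.72. Tubb2b was negative with each of the other 7, from -0.762 with Stmn1 to -0.344 with Stmn2. The neighbours Tuba1a and Tuba1b had r = 0.166, and Stmn2 and Tubb6 had r = -0.0825.

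The genes whose representative probe followed each member most closely over the 15 samples, by Pearson's r, were the following. For Stmn1 they were Ap2m1 (0.976), Ddx21 (0.968) and Snrpa (0.962). For Stmn2 they were Efna5 (0.981), Ap2s1 (0.976) and Rab32 (0.955). Tubb5 was followed by Nrm (0.973), Isy1 (0.969) and Pdlim7 (0.969), and Tubb2b by AU040320 (0.964), Snx13 (0.952) and Txnip (0.945). Tubb6 was followed by Aifm1 (0.936), Gins3 (0.936) and Idh3a (0.933). For Tuba1a they were Tfam (0.916), Eif2b5 (0.873) and Far1 (0.868), for Tuba4a Brip1os (0.879), Aimp2 (0.87) and Znrd2 (0.859), and for Tuba1b Rps2 (0.827), Mab21l4 (0.78) and Nf2 (0.743). These are the highest values among all tested genes, picked by their r.

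The rest of the microtubule genes are given by list, with log2 differences of the named genes in parentheses, and each list's median reads against those over all probes given above. Of the other alpha- and beta-tubulins listed, 5 were tested. Tubb4b, a beta-tubulin of dividing and ciliated cells, fell by 1.05 from day 0 to day 1 in control cells (SE 0.11, adjusted p 1.72e-06), and Tuba3b and Tuba3a fell by 0.51 and 0.23. None rose, and the median was -0.23, in a comparison where 18.1% of all probes fell. None of the 5 passed for RNAi at day 1, where 33.1% of all probes did. At day 0, where 12.5% did, Tubb4a was at least 1.1-fold higher (adjusted p 0.0259), its controls all lying under the detection level. Of gamma-, delta- and epsilon-tubulin, which serve nucleation and the centriole, 3 were tested. Tubg1 (-0.62) and Tube1 (-0.43) fell in control cells, beside 18.1% of all probes. None of the 3 passed for RNAi, where 12.5% of all probes did at day 0 and 33.1% at day 1. Stmn4, a brain stathmin and the other stathmin tested, rose between the days in control cells (0.52, adjusted p 0.00686), unlike Stmn1 and Stmn2, and its RNAi difference at day 1 was -0.08.

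Of 8 tested genes for proteins that sever or depolymerise microtubules, 7 were higher with STAC3 RNAi at day 1 and 1 was lower, with a median of 0.39. Of all probes, 16.8% were higher and 16.2% lower in that comparison. Kif2c (0.66), a depolymerising kinesin of the centromere, Kif18b (0.58), its partner at plus ends, and the severing enzyme Spast (0.54) were the largest rises, and the katanin-like Katnal1 fell (-0.34). At day 0, 3 rose, namely Kif18b (0.59), Fignl1 (0.48) and Spast (0.34), with a median of 0.19, where 6.7% of all probes rose. Between the days in control cells 5 of the 8 fell, with Kif2c (-1.68), Fignl1 (-1.53) and Kif18b (-1.51) furthest and a median of -0.64, where 18.1% of all probes fell. Several of these serve mitosis, and the list was put together with earlier results of these data known.

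Among 13 plus-end proteins, which track the growing tip, 6 rose with STAC3 RNAi at day 1 and none fell, beside 16.8% and 16.2% of all probes. Clip2 (0.42), Dst (0.41) and Mapre2 (0.30) rose most, and the median was 0.11. None of the 13 passed at day 0, where 12.5% of all probes did, and their median was 0.01. In control cells only Mapre1 passed between the days, a fall of -0.48, where 35.8% of all probes passed. Mapre1 is EB1, on which other tip proteins depend.

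Of 16 microtubule-associated proteins, 6 rose and 4 fell with STAC3 RNAi at day 1, with a median of 0.03, beside 16.8% and 16.2% of all probes. Map1s (0.86), Dclk1 (0.84) and Map7d1 (0.52) rose most, and Tppp3 (-0.79), Map1b (-0.43) and Mapt (-0.41), the gene of tau, fell most. At day 0 Map1s rose (0.77) and Tppp3 fell (-0.54), 2 of 16 where 12.5% of all probes passed. Between the days in control cells 6 rose and 1 fell, beside 17.7% and 18.1% of all probes. Tppp3 (1.21) and Mtus1 (0.36) were among the 3 largest rises, and the spindle protein Tpx2 fell (-1.26). Mapt, the remaining one of the 3, was under the detection level in all control day 0 samples, so its rise was at least 1.54-fold (adjusted p 2.34e-07).

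Of 12 enzymes and partners that modify tubulin, none rose and 4 fell with STAC3 RNAi at day 1, with a median of -0.08. These 4 of 12 stand beside 33.1% of all probes passing in either direction. Svbp (-0.85), the partner of the vasohibins that remove the terminal tyrosine, Ttll12 (-0.41) and Ttll1 (-0.29) fell most. At day 0 Ttll7 fell (-0.18) and the other 11 did not pass, where 12.5% of all probes passed, 5.79% of them downward changes. Between the days in control cells Svbp (0.99) and the deacetylase Sirt2 (0.77) rose, and Ttll4 (-0.34), Ttll12 (-0.31) and Ttl (-0.29), the tubulin tyrosine ligase, fell, 5 of 12 where 35.8% of all probes passed.

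Of 13 folding genes 1 rose (Pfdn5, 0.29) and 2 fell (Pfdn2, -0.25, and Tbcb, -0.20) with STAC3 RNAi at day 1, with a median of -0.02, where 33.1% of all probes passed. At day 0 Tbcel (-0.49) and Pfdn2 (-0.25) fell, beside 5.79% of all probes. From day 0 to day 1 in control cells 5 rose and 2 fell, with a median of 0.07, where 17.7% of all probes rose and 18.1% fell. Tbcd (0.47), Arl2 (0.38) and Pfdn5 (0.35) rose most, and the prefoldin subunits Vbp1 (-0.38) and Pfdn4 (-0.36) fell.

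**Figure D4:**
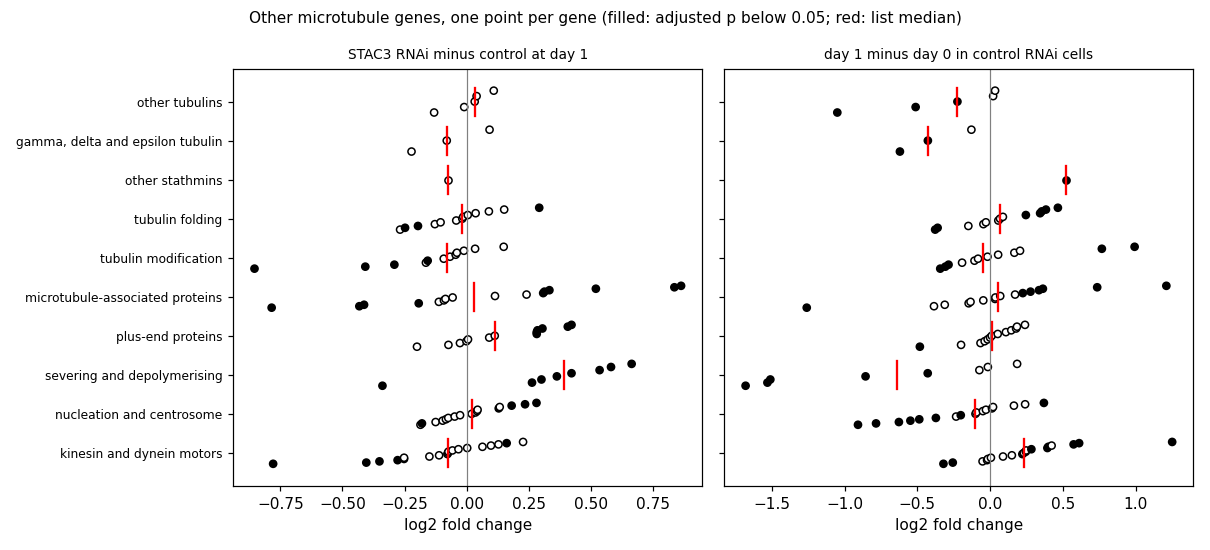
Log2 fold change of every tested gene of the microtubule lists, in STAC3 RNAi minus control at day 1 and in day 1 minus day 0 of control cells; each point is a gene, its height within a row has no meaning, filled points have an adjusted p below 0.05, and the bar is the list's median. The severing and depolymerising genes have medians of 0.39 and -0.64 in the 2 panels.

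Since Stmn2 and several of these tubulins are best known from neurons, markers of that and other cell types were read in the same arrays. Of 8 neuron markers with a probe 5 were kept, while Rbfox3, Syp and Elavl4 were detected on too few arrays. The log2 of the summed level of all 8 was 10.60 to 10.98 in control day 0, 10.53 to 10.88 in STAC3 RNAi day 0, 11.20 to 11.59 in control day 1 and 10.87 to 11.50 in STAC3 RNAi day 1. The RNAi range overlapped that of its control on both days. The part of these markers in the RNAi differences of Stmn2 was not tested. With RNAi at day 1, Syn1 rose (0.83) and Nefm (-1.05) and Eno2 (-0.86) fell, and at day 0 Nefm fell (-1.03). Of all probes, 33.1% passed at day 1 and 12.5% at day 0. In control cells Eno2 (1.49), Gap43 (1.19) and Map2 (0.34) rose between the days, where 17.7% of all probes rose. In bulk RNA, fewer cells of a type and less RNA per cell cannot be told apart.

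Of 10 myogenic markers with a probe 9 were kept, and Myf5 was under the detection level in all samples. The summed level of all 10 was 14.81 to 14.85 in control day 0, 14.66 to 14.81 in STAC3 RNAi day 0, 15.36 to 15.41 in control day 1 and 14.99 to 15.21 in STAC3 RNAi day 1. At day 1, 7 were lower with RNAi, led by Mymk (-1.53), Myog (-1.47) and Chrna1 (-1.01), and 1, Vim, was higher (0.47). Of all probes, 16.2% were lower and 16.8% higher in that comparison. At day 0, Chrna1 (-0.56) and Des (-0.28) were lower, beside 5.79% of all probes. Between the days in control cells 6 rose, with Myog (2.29), Mymk (2.02) and Itga7 (1.53) in front, and Vim fell (-0.26). There 17.7% of all probes rose and 18.1% fell.

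Markers of other cell types were read in both RNAi comparisons. At day 0 the 5 fibroblast markers summed to 9.38 to 9.46 in control and 9.5 to 9.64 with RNAi, and the 4 smooth muscle markers to 14.17 to 14.42 and 14.53 to 14.82. Neither pair of ranges overlapped, in a comparison where 27.1% of all tested probes showed no overlap. The smooth muscle sum was mostly Acta2 (group means 14.26 and 14.67), which did not pass (adjusted p 0.146). Of the fibroblast markers, Dpt, Lum and Pi16 had group means of 6.73 to 6.83, under the detection level. The 4 adipocyte markers with a probe did overlap, at 10.53 to 10.70 and 10.54 to 10.66. They include Adipoq, which was under the detection level in all samples. Of these genes only Pdgfra passed at day 0 (0.50), where 12.5% of all probes passed. The part of these markers in the day 0 differences of Stmn2 and Tuba1a was not tested. At day 1 the 5 fibroblast markers summed to 11.08 to 12.24 in control and 12.29 to 13.02 with RNAi. The 4 adipocyte markers with a probe summed to 9.97 to 10.31 and 10.59 to 10.79, and the 4 smooth muscle markers to 13.57 to 14.34 and 14.40 to 14.86. None of these 3 pairs of ranges overlapped, in a comparison where 28.2% of all tested probes showed no overlap. The fibroblast sum was mostly Dcn at day 1 (group means 11.58 and 12.34), and the smooth muscle sum mostly Acta2 (13.88 and 14.64). Pdgfra (0.93), Dpt (0.92), Dcn (0.76), Lpl (1.07) and Acta2 (0.76) were the largest rises of their lists there, where 16.8% of all probes rose. In control cells between the days Dcn rose (3.96) and Pparg (-0.68), Lpl (-0.53) and Tagln (-0.96) fell, beside 17.7% and 18.1% of all probes. The part of these markers in the day 1 differences of Stmn1, Stmn2, Tubb5 and Tubb6 was not tested.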

How the data were processed

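RNA of 15 samples was read on 18 Illumina arrays, and 3 repeat arrays were averaged with their first arrays. The deposited non-normalized table holds bead intensities and detection p-values for 45281 probes, per the file headers, and 18 columns of standard errors there were not used. The authors' value table holds log2 values of 24538 probes, normalized with lumi, per the submitters' processing notes (version and settings not given in the sources used here). Its unit was read from the values. The 2 tables disagree on the names of 12 of 18 columns, and the value table was used because each repeat array is most like its first array there (r of 0.9949, 0.9955 and 0.9956), whereas under the other table's names it ranks 11, 4 and 15. Detection p-values were matched by probe alone. The dimmer set of 6 arrays is the last 6 columns of the non-normalized table, the ones whose names match.

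The filter (detection p under 0.01 on at least 3 arrays) left 18408 probes of 10146 named genes. limma 3.58.1 (R 4.3.3) fitted 1 mean per group to all 15 samples, with empirical Bayes moderation, two-sided, and Benjamini-Hochberg adjustment over all 18408 probes. A pass is an adjusted p under 0.05. The procedure was tested on simulated data with independent noise for each probe and sample. That simulation held no array sets, repeats or likeness between replicates, so it cannot show their effect. Of all probes 20685 carry 1 symbol, 8 several and 3845 none in the platform annotation, which can be old.

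The genes, lists and markers were chosen with earlier results of these data known. All 9 genes are named, with Stac3 and Myog. Of each list, up to 3 passing genes per direction with the largest change are named for RNAi on each day and for control cells between the days. The 3 genes with the highest r are named for each member. Lists carry no set test. The labels do not say what a replicate number stands for, and the numbers were not taken to pair the samples: same-numbered samples of different groups deviated together at r of -0.202 to 0.492 over 14 pairs, 9 of them above 0.1. The 3 pairs of control day 0 and day 1 were all above it (0.131, 0.21 and 0.226). Pairs of control and RNAi had the largest values. They were 0.0752, 0.199 and 0.492 at day 0, and 0.392, -0.0541, 0.24 and 0.371 at day 1. Alternatives changed the filter, probe choice, repeats, groups fitted, normalization, blocks, array set, samples and table. The number of arrays limits the precision.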

Additional observations from a re-analysis of the deposited data

Results flagged for a closer look

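Tubb2b in STAC3 RNAi day 0 replicate 4 was 13.36, while the other 3 samples of that group were 13.65 to 13.71. This sample alone of its group was read in the dimmer set of 6 arrays, so sample and array set cannot be told apart. The gap took 0.837 of the group's range, above Dixon's 95% critical value for 4 samples. The 9 genes gave 27 such groups, and chance marks about 5% of groups. Without this sample the Tubb2b calls did not change.

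For Tuba1a the effect of STAC3 RNAi at day 1 minus that at day 0 was -0.41 (limma, adjusted p 0.0307). The call was lost in 5 of 15 fits that each left out 1 sample. All 4 RNAi samples were above their controls at day 0, where 27.1% of all tested probes showed no overlap, and the groups overlapped at day 1. The second Tuba1a probe gave 0.0261 for the same difference (adjusted p 0.964).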

How the results depend on the processing

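With 3 or 4 samples a group, and Tuba4a and Stac3 near the detection level, small changes may go unseen. Passing counts of the 8 tested genes were 2 for RNAi at day 0, 4 for RNAi at day 1, 4 for control cells between the days, 6 for RNAi cells between the days and 1 for the difference between the days' RNAi effects. Leaving out each replicate in turn gave 1 to 2, 2 to 4, 4 to 5, 5 to 6 and 0 to 3. Within the set of 6 arrays the counts were 0, 1, 1, 3 and 0 (3 at day 0 and 1 for the difference between effects with unadjusted p under 0.05). With the non-normalized table under its own column names they were all 0 in limma, with 0, 0, 0, 3 and 0 at unadjusted p under 0.05. With the mean of all probes of a gene, RNAi at day 0 gave 1 and the difference between effects 0 (2 unadjusted). That difference gave 3 with the replicate block, 3 with a block for the array set and 2 in the 12 arrays alone. In control cells between the days, where all pairs deviated together, the replicate block changed no call. For the difference between effects the block, which stands for no labelled pairing, made Stmn2 (0.89, adjusted p 0.0403) and Tubb6 (-0.64, adjusted p 0.0473) pass there. With quantile normalization added, the 2 comparisons between days gave 5 and 7, and Tuba1b fell by 0.20 in control cells (adjusted p 0.0347).

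Of the single-gene values under the alternatives, 672 kept direction and call, 33 lost the call, 15 gained it and 32 changed sign, none of the last having passed. For Tuba1a in control cells between the days the sign changed with the mean of probes (-0.109), the replicate block (-0.0394), the set block (-0.013), within 12 arrays (-0.0117) and within 6 (-0.107), and leaving out samples gave -0.0561 to 0.0456. For the difference between effects, Tubb2b gave -0.0792 with the mean of probes, -0.0337 with quantile normalization and -0.115 within 12 arrays, and -0.0433 to 0.0916 leaving out samples. Within the 6 arrays the same difference was -0.46 for Stmn1, -0.18 for Tuba1b and 0.0558 for Tuba4a, which ran from -0.0729 to 0.0227 leaving out samples. For RNAi at day 0, Tuba1b gave 0.000722 with first arrays only, 0.0104 with quantile normalization, 0.15 within 6 arrays and -0.104 to 0.00697 leaving out samples. Tuba4a gave 0.0194 with first arrays only, 0.0298 within 12 arrays and -0.0567 to 0.0384 leaving out samples. For RNAi at day 1, Tuba1b gave -0.0305 within 6 arrays and -0.0292 to 0.0578 leaving out samples, and Tuba4a -0.0739 to 0.0191. Stmn2 in RNAi cells between the days gave -0.00709 within 12 arrays. The cause of these changes was not tested.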

Other observations

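Genes of microtubule nucleation and the centrosome numbered 17 among the tested. With STAC3 RNAi 4 were higher at day 0, with Haus8 (0.47) and Haus5 (0.46), subunits of the augmin complex that starts branches on existing microtubules, and Nedd1 (0.34), which recruits the gamma-tubulin ring, in front, and none was lower. Of all probes, 6.7% were higher in that comparison. At day 1, 4 were higher, with Haus8 (0.28), Nedd1 (0.23) and Nin (0.18) in front, and Mzt2 was lower (-0.18), with a median of 0.02, where 33.1% of all probes passed. Between the days in control cells 7 fell and 1 rose, beside 18.1% and 17.7% of all probes: Haus6 (-0.91), Haus8 (-0.78) and Haus5 (-0.63) fell most, and Mzt2 rose (0.37).

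Of 19 kinesin and dynein motor genes, 8 rose and 2 fell between the days in control cells, with a median of 0.23. The dynein intermediate chain Dync1i1 (1.25) and the kinesins Kif5c (0.61) and Kif3c (0.57) rose most, and Kif1c (-0.32) and Kif1b (-0.26) fell, where 35.8% of all probes passed. With STAC3 RNAi 5 were lower at day 1 and 1 was higher, 6 of 19 where 33.1% of all probes passed: Dynll2 (-0.78), Kif3c (-0.40) and Dync1li2 (-0.35) were lowest and Dync1i2 was higher (0.16). At day 0, Kif3c (-0.39), Kif3a (-0.32) and Dync1li1 (-0.20) were lower and none was higher, beside 5.79% of all probes lower.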
